A study of Mus musculus with 12 samples.

Results

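Messenger RNA of 10 genes of the Notch pathway was followed in mouse sciatic nerve at day 14 after injury, in the bridge of regenerating tissue between the nerve ends and in the distal stump. The set holds the 4 receptors Notch1 to Notch4, the ligands Jag1, Jag2, Dll1 and Dll4, and the target genes Hey1 and Heyl. They were chosen by gene symbol, 10 of the 30452 genes listed, and all 10 passed the filter on low counts. Nf1 KO mice carried P0-CreERT2:YFPfl/fl:Nf1fl/fl and lost Nf1 upon tamoxifen induction, whereas CTL mice carried P0-CreERT2:YFPfl/fl:Nf1+/+, so that both shared the Cre transgene and the YFP alleles. The 4 groups were Nf1 KO bridge, CTL bridge, Nf1 KO distal stump and CTL distal stump, with 3 independent samples each, and for each of them 6 fragments of nerve, 0.5 mm in size, were pooled from several mice whose age was not given. The Cre driver was aimed at myelinating Schwann cells, so the other cells of the nerve were meant to keep Nf1. That gene encodes neurofibromin, a brake on RAS. Which cells lost it cannot be told from bulk tissue. The study asked which signals around an injured nerve favour or oppose tumour growth once Nf1 is lost.

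Notch receptors sit in the plasma membrane and are cut when a ligand on a neighbouring cell engages them, first by an ADAM protease and then by gamma-secretase. The freed intracellular domain enters the nucleus, joins the DNA-binding protein RBPJ and a Mastermind coactivator, and switches on repressors of the HES and HEY families. In blood vessels, endothelial cells use NOTCH1, NOTCH4, DLL4 and JAG1, and the mural cells around them use NOTCH3 and express HEYL. In the Schwann cell lineage, Notch signalling acts in immature cells and opposes myelination.

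The deposited counts summed to 18821445 to 38981819 per library, and 19189 genes were tested. Levels are given as CPM, which are counts scaled to the effective library size, the total times a normalization factor. The members had 39 to 4168 counts in a library, against 3 counts taken as a floor. Nf1 itself was lower in Nf1 KO than in CTL in both regions, by 0.40 (SE 0.10, adjusted p = 0.0218) in the bridge and by 0.60 (SE 0.10, adjusted p = 0.0056) in the distal stump, as log2 differences in edgeR's quasi-likelihood test. Schwann cell markers were present in every library, with Sox10 between 62.3 and 115 CPM. Several libraries stood apart. CTL bridge 1 and CTL bridge 3 had summed levels of 8 skeletal muscle genes of 9515 and 8367 CPM, against 1266 CPM in CTL bridge 2. Nf1 KO distal 1 had 3247 CPM of muscle genes, against 17.6 and 105 CPM in the other libraries of its group, and a normalization factor of 0.763. Nf1 KO bridge 1 had 1191 CPM of 6 neutrophil genes, against 88.3 and 115 CPM in the other libraries of its group, and Nf1 KO distal 1 had 575 CPM, against 251 and 244 CPM. Y-linked genes, 4 of them, averaged 4.46 log2 CPM in Nf1 KO bridge and 5.25 in CTL bridge, and 4.04 in Nf1 KO distal stump and 5.06 in CTL distal stump. Ddx3y, one of them, was lowest in the library numbered 2 in each of the 4 groups. The sex of the pooled mice was not given.

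More of the Notch genes passed the test between regions than between genotypes. In Nf1 KO nerves, 6 of the 10 passed the test between bridge and distal stump at an adjusted p under 0.05 (edgeR quasi-likelihood test with Benjamini-Hochberg adjustment over 19189 genes). Jag1, Jag2, Dll4, Notch3 and Heyl were higher in the bridge, and Notch1 was lower. In CTL nerves 2 of the 10 passed, Jag1 and Heyl, both higher in the bridge. Of all genes tested, 15.2% passed in Nf1 KO nerves, 7.78% as higher and 7.41% as lower in the bridge, and 9.85% passed in CTL nerves, 5.15% as higher in the bridge. The median log2 difference of the 10 genes was 0.74 in Nf1 KO and 0.30 in CTL nerves, against 0.0042 and -0.0009 over all genes. The libraries of bridge and distal stump did not overlap for 7 members in Nf1 KO nerves and for 6 in CTL nerves, against 34.0% and 29.6% of all genes. Because the tissue was measured in bulk, fewer cells of a type and less RNA per cell cannot be told apart.

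**Figure D1:**
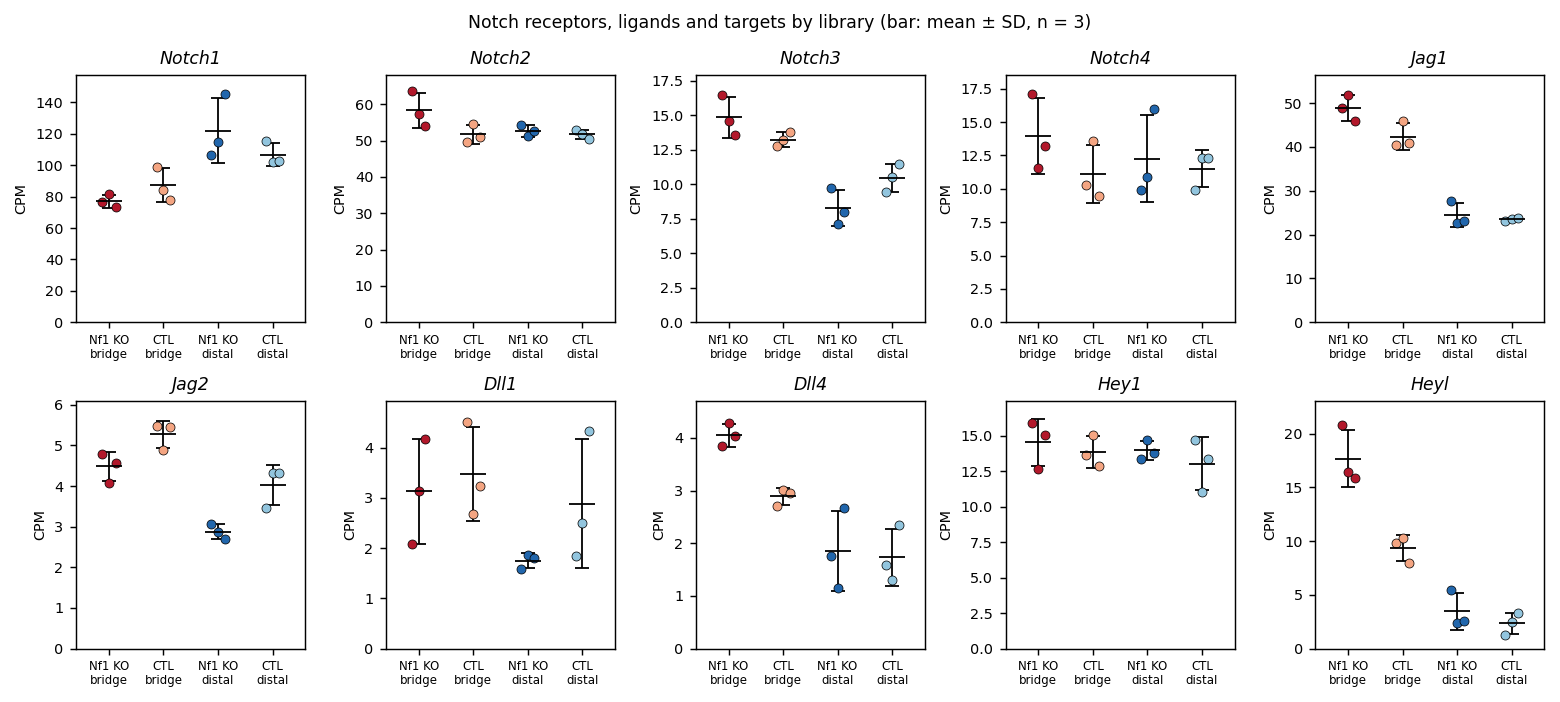
CPM of each of the 10 genes (vertical axes, each from 0) in the 12 libraries, in the order Nf1 KO bridge, CTL bridge, Nf1 KO distal stump and CTL distal stump. Points are libraries, bars the mean ± SD of 3. For Jag1 and Heyl all 6 bridge libraries lie above all 6 distal stump libraries, while Hey1 stays between 11.1 and 15.9 CPM throughout.

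Jag1, a membrane-bound ligand of the Jagged type, was the most abundant of the ligands per exon length. It had 49.0, 51.8 and 45.8 CPM in Nf1 KO bridge, against 27.7, 22.6 and 23.1 CPM in Nf1 KO distal stump. In CTL bridge it had 40.4, 45.8 and 40.8 CPM, against 23.2, 23.5 and 23.8 CPM in CTL distal stump. All 6 bridge libraries were above all 6 distal stump libraries. The log2 difference between bridge and distal stump was 1.00 in Nf1 KO (SE 0.08, adjusted p = 0.000356) and 0.85 in CTL nerves (SE 0.08, adjusted p = 0.000845). The gene lies on chr2:137081456-137116644 of GRCm38, on the minus strand. Its promoter is shown because the gene moved with region in both genotypes. The 126 bases are those of the RefSeq promoter window (GRCm38.p6, 250 bases before to 50 after the gene start) outside annotated exons, chr2:137116645-137116770, minus strand, 5′ to 3′. In this and the other promoters, capitals mark GC boxes, the letters GGGCGG or their reverse complement CCGCCC, which transcription factors of the SP family bind.
Jag1: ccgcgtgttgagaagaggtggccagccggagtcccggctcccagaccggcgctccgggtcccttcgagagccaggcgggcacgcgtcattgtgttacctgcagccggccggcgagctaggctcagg
There was no GC box in this stretch.

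Dll4, a Delta-type ligand known from arterial and sprouting endothelium, was present at low levels. Nf1 KO bridge had 3.85, 4.28 and 4.03 CPM, against 1.75, 1.15 and 2.66 CPM in Nf1 KO distal stump. The lowest bridge library was above the highest distal stump library, and the difference passed the test (log2 1.13, SE 0.29, adjusted p = 0.026). That call was lost when any of Nf1 KO bridge 1, 2 or 3 or Nf1 KO distal 1 or 2 was left out (adjusted p = 0.0592 to 0.0741), with log2 differences of 0.88 to 1.17. In CTL nerves, Dll4 had 2.71, 3.01 and 2.96 CPM in the bridge and 1.58, 1.29 and 2.34 CPM in the distal stump. Those libraries did not overlap either, but the log2 difference of 0.73 did not pass (SE 0.29, adjusted p = 0.146). Dll4 lies on chr2:119325784-119335962, plus strand. Its promoter, chr2:119325534-119325783 on the plus strand, is printed because the gene was, like Jag1, higher in the bridge of Nf1 KO nerves. The GC content of its 300-base window was 63.7%, and that of Jag1 was 55.7%.
Dll4: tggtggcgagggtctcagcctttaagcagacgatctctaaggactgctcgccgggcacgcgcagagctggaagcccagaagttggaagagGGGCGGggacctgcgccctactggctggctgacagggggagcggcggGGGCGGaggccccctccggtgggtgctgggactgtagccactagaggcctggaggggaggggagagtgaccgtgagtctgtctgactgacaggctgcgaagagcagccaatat
The stretch held 2 GC boxes.

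Jag2, the other Jagged-type ligand (chr12:112907819-112929776, minus strand), had 4.80, 4.08 and 4.57 CPM in Nf1 KO bridge, against 3.06, 2.86 and 2.70 CPM in Nf1 KO distal stump. It was higher in the bridge there by a log2 difference of 0.64 (SE 0.13, adjusted p = 0.0103). CTL bridge had 5.48, 4.88 and 5.45 CPM and CTL distal stump 3.45, 4.32 and 4.32 CPM, which did not overlap, with a log2 difference of 0.39 (SE 0.13, adjusted p = 0.0947). Dll1, a Delta-type ligand (chr17:15367354-15376872, minus strand), had 2.09, 3.13 and 4.18 CPM in Nf1 KO bridge, against 1.58 to 1.87 CPM in the 3 libraries of Nf1 KO distal stump. CTL bridge had 4.50, 2.69 and 3.23 CPM and CTL distal stump 1.84, 2.49 and 4.32 CPM. The Nf1 KO libraries did not overlap, but neither region difference of Dll1 passed (log2 0.84, SE 0.34, adjusted p = 0.13 in Nf1 KO, and log2 0.26, SE 0.34, adjusted p = 0.71 in CTL).

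Notch3, the receptor of vascular smooth muscle cells and pericytes, was higher in the bridge in Nf1 KO nerves. It had 16.5, 14.6 and 13.6 CPM in Nf1 KO bridge, against 9.72, 7.14 and 7.96 CPM in Nf1 KO distal stump (log2 0.84, SE 0.12, adjusted p = 0.00189). CTL bridge had 12.8, 13.2 and 13.8 CPM and CTL distal stump 9.45, 10.5 and 11.5 CPM. The libraries of both regions were again separate, and the log2 difference was 0.34 (SE 0.12, adjusted p = 0.114). Its promoter, chr17:32166891-32167140 on the minus strand, is printed as that of the receptor that was higher in the bridge, and the gene lies on chr17:32120820-32166852.
Notch3: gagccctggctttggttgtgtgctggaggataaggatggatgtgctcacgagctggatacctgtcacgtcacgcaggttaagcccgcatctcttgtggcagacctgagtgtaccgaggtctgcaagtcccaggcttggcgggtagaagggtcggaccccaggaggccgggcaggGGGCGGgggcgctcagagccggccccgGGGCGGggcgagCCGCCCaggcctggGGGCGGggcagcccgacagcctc
There were 4 GC boxes in it.

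Notch1, a receptor of endothelial and many other cells, ran the other way. It had 76.5, 81.4 and 73.1 CPM in Nf1 KO bridge, against 106.5, 114.5 and 145.2 CPM in Nf1 KO distal stump. Every Nf1 KO bridge library was below every Nf1 KO distal library, and the log2 difference was -0.66 (SE 0.12, adjusted p = 0.00531). CTL bridge had 99.2, 84.5 and 78.1 CPM and CTL distal stump 115, 102 and 103 CPM, also without overlap, and this log2 difference of -0.29 did not pass (SE 0.12, adjusted p = 0.162). The gene lies on chr2:26457903-26516663, minus strand. The RefSeq start falls inside that longer gene model. The promoter before that start, chr2:26503825-26504072, is printed for comparison with Notch3, which changed in the opposite direction.
Notch1: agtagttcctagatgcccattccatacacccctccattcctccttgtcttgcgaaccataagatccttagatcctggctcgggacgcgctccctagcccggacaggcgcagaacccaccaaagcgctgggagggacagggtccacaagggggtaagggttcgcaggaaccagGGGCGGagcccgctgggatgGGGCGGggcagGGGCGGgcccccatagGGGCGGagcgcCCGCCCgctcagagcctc
This stretch had 5 GC boxes.

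Of the 10 members, 8 were found in the RefSeq promoter table, with 9 promoters in all, and Hey1 and Heyl were not among them. None of the 9 windows of 300 bases held TGGGAA, the core of the motif that RBPJ binds, on either strand, and 25.6% of 32851 mouse promoters did. The longer form GTGGGAA, which contains that core, was in 0 of the 9 and in 6.38% of all. CACGTG, an E-box that HEY proteins can bind, was in 0 of the 9 and in 7.15% of all. GGGCGG was in 5 of the 9 and in 35.7% of all. The last 2 motifs were chosen after the data were seen, and matches describe letters in a window only. Exons of Notch1, Notch2, Notch3, Dll1 and Dll4 share 214 to 1068 bases with those of 6 non-coding genes, 5 of them on the opposite strand. Whether the counting used strand was not given, so reads of these pairs cannot be told apart.

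Heyl, a HES-related repressor and Notch target of mural cells (chr4:123233556-123249875, plus strand), spanned the widest range of the set, from 1.26 to 20.8 CPM. It had 20.8, 16.4 and 15.9 CPM in Nf1 KO bridge, against 5.45, 2.36 and 2.59 CPM in Nf1 KO distal stump. CTL bridge had 9.83, 10.3 and 7.94 CPM, against 1.26, 2.49 and 3.27 CPM in CTL distal stump. All 6 bridge libraries were above all 6 distal stump libraries. The log2 difference was 2.35 in Nf1 KO (SE 0.37, adjusted p = 0.00248), a 5.10-fold higher level in the bridge, and 1.99 in CTL nerves (SE 0.37, adjusted p = 0.01), 3.97-fold higher. Without both muscle-rich CTL bridge libraries the CTL difference was 2.12 and did not pass (adjusted p = 0.0686), with 1 CTL bridge library left.

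Hey1, the other target gene (chr3:8663359-8667256, minus strand), is like Heyl a repressor of the HEY family. Its libraries overlapped in every comparison, and its 4 group means ran from 13.0 to 14.5 CPM. The log2 difference between bridge and distal stump was 0.06 in Nf1 KO (SE 0.12, adjusted p = 0.816) and 0.09 in CTL nerves (SE 0.12, adjusted p = 0.725). Notch2, a broadly expressed receptor (chr3:98013527-98150361, plus strand), stayed between 49.6 and 63.6 CPM in all 12 libraries. Notch4, a receptor of endothelial cells (chr17:34564268-34588503, plus strand), ran from 9.47 to 17.1 CPM. Neither receptor passed the test between regions, with log2 differences of 0.15 (SE 0.07, adjusted p = 0.164) for Notch2 and 0.19 (SE 0.21, adjusted p = 0.624) for Notch4 in Nf1 KO nerves, and of 0.00 (SE 0.07) and -0.05 (SE 0.21) in CTL nerves.

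**Figure D2:**
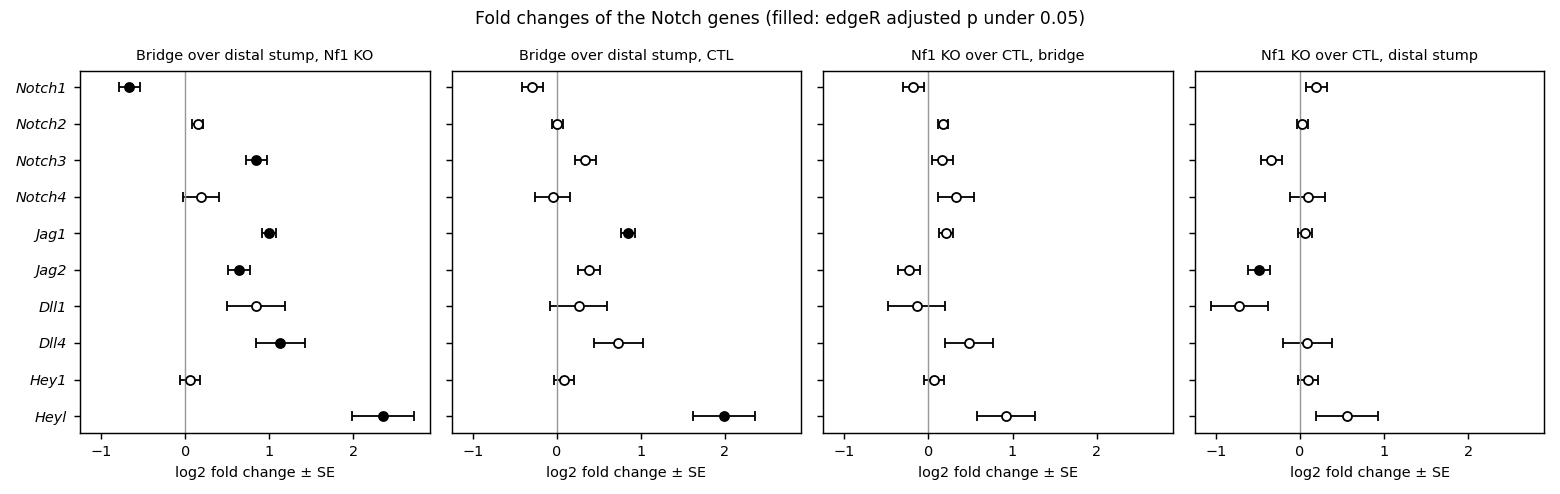
Log2 fold changes of the 10 genes (horizontal axis) with bars of 1 SE in 4 comparisons, bridge over distal stump in Nf1 KO and in CTL, and Nf1 KO over CTL in the bridge and in the distal stump. Filled points passed an adjusted p under 0.05, which 6, 2, 0 and 1 of the 10 genes did.

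The genotype comparison asked whether loss of Nf1 went with other levels of these genes. In the bridge, 0 of the 10 passed edgeR's quasi-likelihood test, against 14.6% of all genes. At an unadjusted p under 0.05 there were 3 of the 10, Heyl, Notch2 and Jag1, and 5570 of all 19189 genes. DESeq2 and limma-voom each called 1, Heyl, and of all genes they called 18.1% and 14.1%. The libraries did not overlap for 3 members, Heyl and Dll4 as higher and Jag2 as lower in Nf1 KO, against 34.4% of all genes. Every Nf1 KO bridge library of Heyl (15.9 to 20.8 CPM) was above every CTL bridge library (7.94 to 10.3 CPM), with a log2 difference of 0.92 (SE 0.35, adjusted p = 0.106 in edgeR). DESeq2 gave an adjusted p of 0.0446 and limma-voom 0.0161 for it, and edgeR gave 0.0149 when only the 6 bridge libraries were fitted and 0.0453 without Nf1 KO distal 1. Over the 12 leave-one-out fits the edgeR value ran from 0.0453 to 0.262, and without both muscle-rich CTL bridge libraries it was 0.51, with a log2 difference of 0.79. Nf1 KO bridge 1, the library rich in neutrophil genes, had the highest Heyl level, and without it the log2 difference was 0.79 (adjusted p = 0.262).

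The other members gave smaller values between genotypes in the bridge. Jag1 had a log2 difference of 0.21 (SE 0.08, adjusted p = 0.128) and Notch2 of 0.17 (SE 0.07, adjusted p = 0.108), both with overlapping libraries. Dll4, with 3.85 to 4.28 CPM in Nf1 KO bridge and 2.71 to 3.01 CPM in CTL bridge, had a log2 difference of 0.48 (SE 0.29, adjusted p = 0.301). Jag2, with 4.08 to 4.80 CPM in Nf1 KO bridge and 4.88 to 5.48 CPM in CTL bridge, had one of -0.23 (SE 0.13, adjusted p = 0.277). These 2 ligands were thus apart in opposite directions without passing the test. Notch1, Notch3, Notch4, Dll1 and Hey1 had log2 differences of -0.18, 0.17, 0.33, -0.14 and 0.07, with adjusted p-values of 0.349 to 0.842.

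In the distal stump 1 of the 10 passed, Jag2, against 8.14% of all genes, 3.69% as lower in Nf1 KO. Its 3 Nf1 KO libraries (2.70 to 3.06 CPM) were below its 3 CTL libraries (3.45 to 4.32 CPM), the one member whose libraries did not overlap, against 27.1% of all genes. The log2 difference was -0.49 (SE 0.13, adjusted p = 0.0499). That p lies at the threshold, and the call was lost in 11 of the 12 leave-one-out fits (adjusted p up to 0.148), under limma-voom (0.0563) and with the level of Y-linked genes as a covariate (0.172), while the log2 difference stayed between -0.59 and -0.42. Notch3, with 7.14 to 9.72 CPM in Nf1 KO and 9.45 to 11.5 CPM in CTL distal stump, had a log2 difference of -0.34 (SE 0.12, adjusted p = 0.128), which was -0.48 and passed (adjusted p = 0.041) without Nf1 KO distal 1, the muscle-rich library. The same library had the highest Heyl level of its group, and the log2 difference of Heyl was 0.56 with it (SE 0.37, adjusted p = 0.41) and 0.07 without it. The other 7 members did not pass in the distal stump (adjusted p = 0.244 to 0.903).

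Although Notch1, Notch3, Jag2 and Dll4 passed between regions in Nf1 KO and not in CTL nerves, a difference between the genotypes was not shown. The interaction of genotype and region called 0 of the 10 members and 0 of 19189 genes in edgeR (0.0%), with 1 member and 2534 genes at an unadjusted p under 0.05. DESeq2 called 0 members and 447 genes and limma-voom 0 of either. The member was Notch3, whose bridge-to-distal log2 difference was larger in Nf1 KO by 0.51 (SE 0.17, adjusted p = 0.263 in edgeR). For Notch1 the interaction was -0.37 (SE 0.17, adjusted p = 0.38). The 2 region comparisons shared no library, but each genotype comparison shared its libraries with both.

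**Figure D3:**
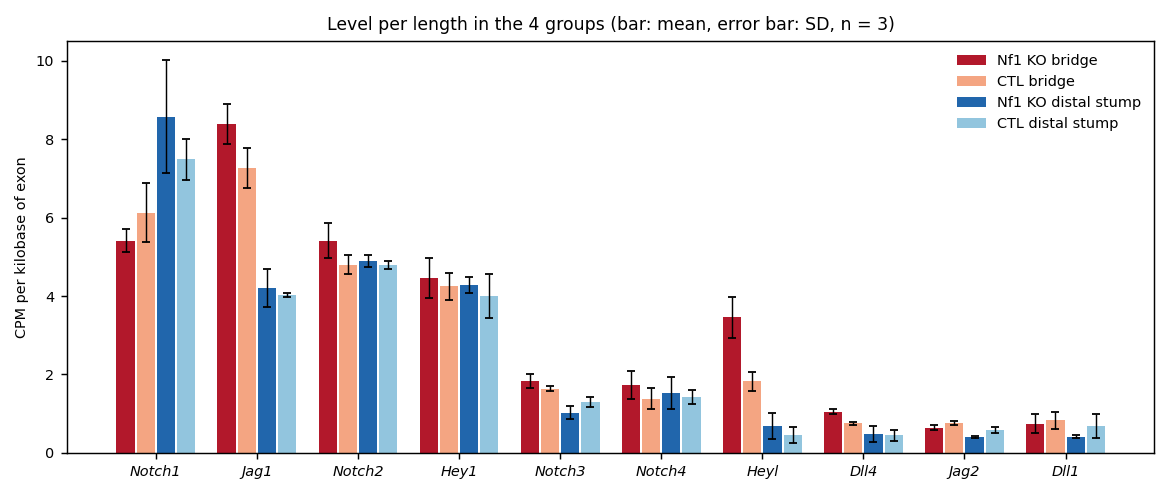
Level per length, in CPM per kilobase of exon (vertical axis, from 0), of the 10 genes in the 4 groups, ordered by their median over 12 libraries. Bars are means of 3 libraries and error bars the SD. Jag1 leads in both bridge groups, at 8.38 and 7.27, and Notch1 in both distal stump groups, at 8.58 and 7.49.

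Levels of different genes were compared only per length, as CPM per kilobase of exon (exon lengths from GENCODE M21). In Nf1 KO bridge the order was Jag1 (8.38), Notch1 (5.41), Notch2 (5.41), Hey1 (4.45), Heyl (3.46), Notch3 (1.84), Notch4 (1.73), Dll4 (1.05), Dll1 (0.743) and Jag2 (0.644). Libraries of neighbours overlapped between Notch1 and Notch2, Hey1 and Heyl, Notch3 and Notch4, and Dll1 and Jag2. In CTL bridge Jag1 (7.27) and Notch1 (6.13) led and overlapped, Notch2 (4.80) and Hey1 (4.25) overlapped, and Heyl (1.83), Notch3 (1.64) and Notch4 (1.38) formed a run in which each overlapped with the next. Dll1 (0.823), Jag2 (0.757) and Dll4 (0.751) came last there.

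In the distal stump the order had Notch1 first, at 8.58 in Nf1 KO and 7.49 in CTL, and Notch2 second, at 4.89 and 4.80, each without overlap with its neighbours. Hey1 (4.28 in Nf1 KO, 3.99 in CTL) and Jag1 (4.20 in Nf1 KO, 4.03 in CTL) followed and overlapped with each other in both groups. Notch4 stood at 1.52 and 1.43 and Notch3 at 1.02 and 1.29 in Nf1 KO and CTL. Heyl, which was the fifth in order in both bridge groups, was at 0.678 in Nf1 KO and 0.457 in CTL distal stump, where it overlapped with Dll4 in both.

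Among the 4 receptors, the share of Notch1 in the summed level per length was 37.7% ± 2.64 in Nf1 KO bridge and 43.9% ± 3.85 in CTL bridge, and 53.4% ± 3.27 in Nf1 KO distal stump and 49.9% ± 2.35 in CTL distal stump (SD, n = 3 each). The 6 bridge libraries ran from 34.8% to 48.3% and the 6 distal stump libraries from 48.4% to 56.5%, so that bridge nerve carried less of its receptor message as Notch1 in every library. Notch3 had the reverse pattern, with 12.7% ± 0.386 in Nf1 KO bridge and 11.8% ± 1.09 in CTL bridge, and 6.45% ± 1.38 in Nf1 KO distal stump and 8.63% ± 0.982 in CTL distal stump. Notch2 held 30.8% to 37.6% and Notch4 9.41% to 12.0% in the group means. Among the 4 ligands Jag1 held the largest share in every library, with group means of 77.4%, 75.7%, 76.2% and 70.5% in Nf1 KO bridge, CTL bridge, Nf1 KO distal stump and CTL distal stump. Summed over the ligands, the level was 58.6 to 63.3 CPM in Nf1 KO bridge and 52.4 to 56.4 CPM in CTL bridge, and 28.5 to 34.1 CPM in Nf1 KO distal stump and 30.0 to 34.7 CPM in CTL distal stump. The summed receptors had 154 to 174 CPM in Nf1 KO bridge and 152 to 172 CPM in CTL bridge, and 181 to 222 CPM in Nf1 KO distal stump and 176 to 187 CPM in CTL distal stump.

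The rest of the pathway was described with 68 other genes in 8 lists. Between bridge and distal stump, 10 were higher and 5 lower in the bridge in Nf1 KO nerves, and 6 were higher and 6 lower in CTL nerves, 22.1% and 17.6% of the list. Between genotypes, 9 were higher and 0 lower in Nf1 KO bridge, and 2 were higher and 3 lower in Nf1 KO distal stump, 13.2% and 7.35% of the list. Over all genes these shares were 15.2% and 9.85% between regions and 14.6% and 8.14% between genotypes, so the genotype shares were near those of all genes. The median log2 difference of the 68 was between -0.03 and 0.06 in these 4 comparisons.

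**Figure D4:**
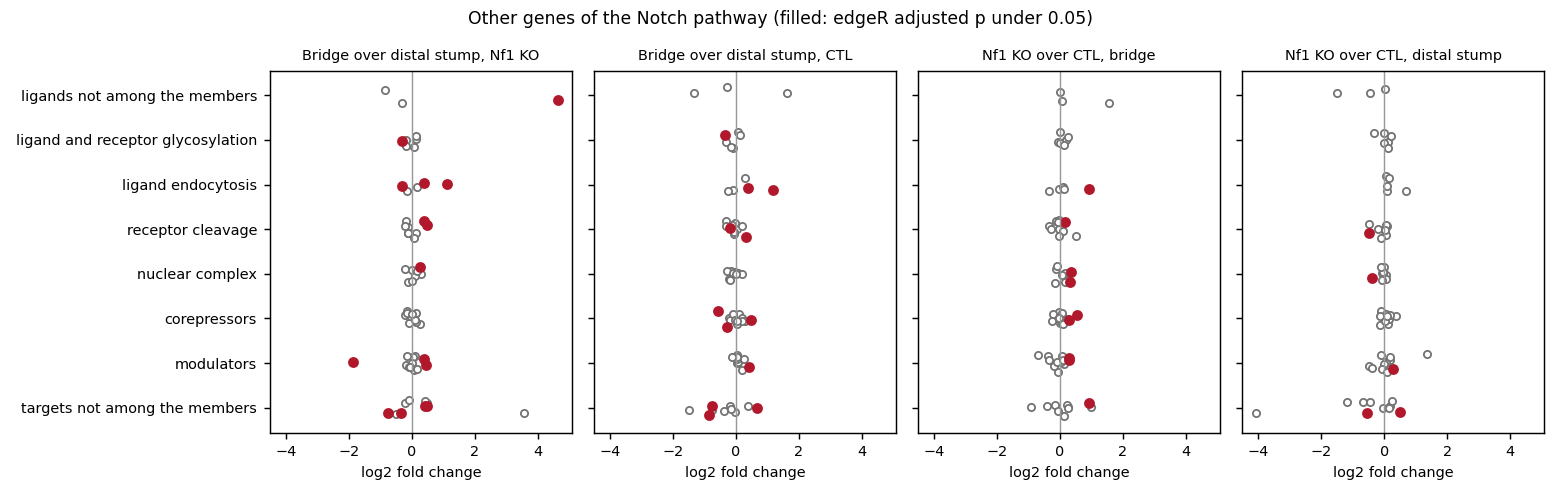
Log2 fold changes (horizontal axis) of 68 other Notch pathway genes in 8 lists (rows) in the 4 comparisons. Each point is 1 gene, and filled points passed an adjusted p under 0.05. The filled points number 15, 12, 9 and 5 from left to right, and Dlk1 stands at 4.65 in the first.

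Dlk1, a membrane protein related to the Delta ligands that lacks their receptor-binding domain, had 21.1, 28.5 and 12.8 CPM in Nf1 KO bridge, against 1.65, 0.577 and 0.252 CPM in Nf1 KO distal stump (log2 4.65, SE 0.86, adjusted p = 0.00585 in edgeR). CTL bridge had 7.47, 5.93 and 8.08 CPM and CTL distal stump 0.677, 0.763 and 5.45 CPM, also without overlap. That log2 difference of 1.61 did not pass (SE 0.75, adjusted p = 0.215 in edgeR), nor did the interaction of Dlk1 (adjusted p = 0.279). Ligand-bearing cells need to pull on the ligand by endocytosis, with the ubiquitin ligases NEURL1 and MIB and the adaptor epsin. Of 5 genes for that step, Neurl1b had 22.8, 19.3 and 19.5 CPM in Nf1 KO bridge, against 10.8, 10.7 and 11.0 CPM in CTL bridge, 10.3, 8.93 and 9.18 CPM in Nf1 KO distal stump and 8.13, 9.16 and 9.13 CPM in CTL distal stump. The 3 Nf1 KO bridge libraries were above all 9 others. It was higher in Nf1 KO than in CTL bridge (log2 0.92, SE 0.09, adjusted p = 0.000329) and higher in bridge than distal stump of Nf1 KO nerves (log2 1.12, SE 0.09, adjusted p = 0.000356). The log2 difference of Neurl1b between regions in CTL nerves was 0.30 and did not pass (SE 0.09, adjusted p = 0.0657 in edgeR). Its interaction of genotype and region did not pass either (log2 0.82, SE 0.13, adjusted p = 0.101 in edgeR). The epsin Epn2 was higher in the bridge in both genotypes (log2 0.40 and 0.38), Epn1 was lower there in Nf1 KO nerves (log2 -0.30), and Neurl1a was higher in the bridge in CTL nerves (log2 1.18).

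Receptor cleavage was covered by 10 genes. Adam10, the protease of the first cut, had a log2 difference of 0.48 between bridge and distal stump in Nf1 KO nerves (SE 0.10, adjusted p = 0.0105) and of -0.48 between Nf1 KO and CTL distal stump (SE 0.10, adjusted p = 0.017). Its 3 Nf1 KO distal libraries, at 58.8 to 62.7 CPM, were below the 9 others, at 76.1 to 96.1 CPM. The interaction of Adam10 did not pass (log2 0.44, SE 0.14, adjusted p = 0.237 in edgeR). Of the gamma-secretase subunits, Aph1b was higher in the bridge in both genotypes (log2 0.40 and 0.34), and Ncstn was higher in Nf1 KO than in CTL bridge (log2 0.17) and lower in bridge than distal stump of CTL nerves (log2 -0.20). Of 6 glycosylation genes, Lfng, a Fringe enzyme that alters the ligand preference of the receptors, was lower in the bridge in Nf1 KO and in CTL nerves (log2 -0.32 and -0.36).

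In the nuclear complex (9 genes), Rbpj was higher in Nf1 KO than in CTL bridge (log2 0.31, SE 0.07, adjusted p = 0.0166), with 44.8 to 49.1 CPM against 36.2 to 39.4 CPM. The Mastermind coactivator Maml1 was also higher there (log2 0.34), and Maml2 was lower in Nf1 KO than in CTL distal stump (log2 -0.39). Of 13 corepressors, 2 were higher in Nf1 KO than in CTL bridge, Hdac1 among them (log2 0.30). In CTL nerves Tle1 was higher and Tle3 and Hdac1 were lower in bridge than distal stump (log2 0.47, -0.58 and -0.27). Among 12 modulators, the Deltex genes Dtx3l and Dtx4 were higher in Nf1 KO than in CTL bridge (log2 0.30 and 0.28), and Dtx4 also in Nf1 KO distal stump (log2 0.29). Egfl7, secreted by endothelial cells and also in the endothelial list, was higher in the bridge in both genotypes (log2 0.44 and 0.41). Dner, a transmembrane protein reported as a Notch ligand of neurons, was lower in Nf1 KO bridge than in Nf1 KO distal stump (log2 -1.85), at 0.293 to 0.358 CPM against 0.807 to 1.68 CPM.

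Of 10 target genes outside the set, 2 were higher and 2 lower in the bridge in Nf1 KO nerves and 1 was higher and 2 lower in CTL nerves, while 1 was higher in Nf1 KO than in CTL bridge and 1 was higher and 1 lower in Nf1 KO than in CTL distal stump. Hes1, the most widely used HES target, had 69.7, 55.0 and 70.1 CPM in Nf1 KO bridge and 60.0, 55.6 and 49.6 CPM in CTL bridge, and 43.6, 47.6 and 55.6 CPM in Nf1 KO distal stump and 31.8, 34.9 and 36.9 CPM in CTL distal stump. It was higher in the bridge in Nf1 KO (log2 0.41, SE 0.12, adjusted p = 0.0435) and CTL nerves (log2 0.67, SE 0.12, adjusted p = 0.00915), and higher in Nf1 KO than in CTL distal stump (log2 0.50, SE 0.12, adjusted p = 0.0282). Nrarp, a target whose product dampens Notch signalling, was lower in Nf1 KO than in CTL distal stump (log2 -0.53, adjusted p = 0.0395), opposite to Hes1, and higher in bridge than distal stump of Nf1 KO nerves (log2 0.48, adjusted p = 0.0384). Myc was higher in Nf1 KO than in CTL bridge (log2 0.92, adjusted p = 0.0136) and lower in bridge than distal stump of CTL nerves (log2 -0.75, adjusted p = 0.0423). Ccnd1, encoding cyclin D1, was lower in the bridge in Nf1 KO and in CTL nerves (log2 -0.76 and -0.85). Both are targets of many other pathways as well.

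Cell type markers moved between the same groups, and their part in the results was not tested. For the counts of markers below, the shares over all genes were 15.2% between regions in Nf1 KO and 9.85% in CTL nerves. Between genotypes these shares were 14.6% in the bridge and 8.14% in the distal stump. Of 14 endothelial markers, 12 were higher in the bridge in Nf1 KO and 4 in CTL nerves, with Kdr at log2 1.09 and 0.60. The summed endothelial level was 522 to 550 CPM in Nf1 KO bridge and 595 to 641 CPM in CTL bridge, and 344 to 415 CPM in Nf1 KO distal stump and 462 to 555 CPM in CTL distal stump. In the distal stump 8 of the 14 were lower and 0 higher in Nf1 KO than in CTL. In the bridge 1 of the 14 was higher and 1 lower. No endothelial or mural marker list had a member at 0 in all libraries of a group.

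Of 12 mural markers, 3 were higher and 1 lower in the bridge in Nf1 KO nerves, and 5 higher and 1 lower in CTL nerves. The pericyte genes Rgs5, Kcnj8 and Abcc9 were the 3 higher ones in Nf1 KO nerves and were also higher in CTL nerves, at log2 1.12, 1.47 and 1.13 in Nf1 KO and 0.96, 1.31 and 1.11 in CTL nerves. The smooth muscle genes Acta2, Myh11, Cnn1 and Tagln, named after their values were seen, had log2 differences of -0.57 to -0.41 in Nf1 KO (adjusted p = 0.0872 to 0.514 in edgeR) and of -0.47 to -0.18 in CTL nerves (adjusted p = 0.22 to 0.744), and none passed. The summed mural level overlapped among all 4 groups, from 698 to 918 CPM over the 12 libraries. Between genotypes 0 of the 12 mural markers passed in either region in edgeR, against 14.6% and 8.14% of all genes in bridge and distal stump. There were also 0 at an unadjusted p under 0.05, against 5570 and 4391 of all 19189 genes in bridge and distal stump. DESeq2 called 0 of them in either region, against 3466 and 2267 of all genes. With limma-voom there were 0 as well, against 2703 and 1671 of all genes. Of 8 arterial endothelial markers, 2 were higher and 1 lower in Nf1 KO than in CTL bridge, Unc5b and Efnb2 at log2 1.16 and 0.56 and Bmx at -0.66. Between regions, 2 of these 8 were higher and 1 lower in the bridge in Nf1 KO nerves, and 1 was higher in CTL nerves. Their median log2 differences were 0.10 in Nf1 KO and 0.11 in CTL nerves. Of 6 sprouting markers, Esm1 was higher in Nf1 KO than in CTL bridge (log2 1.93). Between regions, 3 of these 6 were higher and 1 lower in the bridge in Nf1 KO nerves, and 2 were higher in CTL nerves. The tip cell genes Apln and Angpt2 were higher in both genotypes (log2 0.83 and 0.77 in Nf1 KO, 0.83 and 0.65 in CTL). The summed sprouting level overlapped between regions, at 71.6 to 80.3 CPM in Nf1 KO bridge and 79.4 to 82.6 CPM in Nf1 KO distal stump. It was 69.9 to 77.1 CPM in CTL bridge and 63.1 to 70.2 CPM in CTL distal stump.

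**Figure D5:**
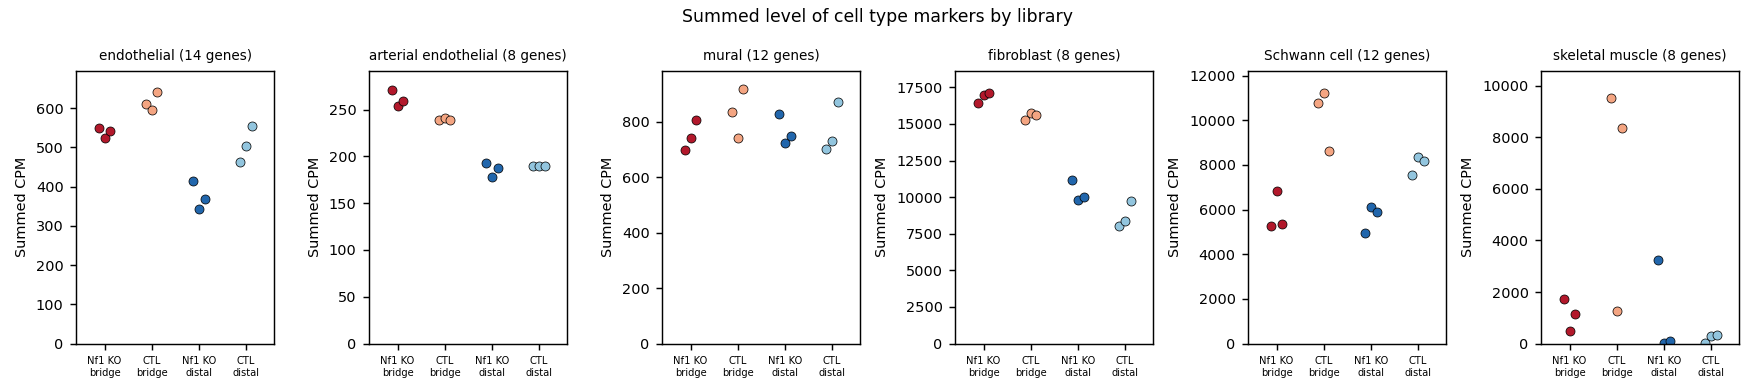
Summed CPM (vertical axes, each from 0) of 6 marker lists by library in the 4 groups, in the order Nf1 KO bridge, CTL bridge, Nf1 KO distal stump and CTL distal stump. Each point is 1 library. Endothelial, arterial and fibroblast sums separate bridge from distal stump in both genotypes, mural sums do not, and 2 CTL bridge libraries stand out for muscle. Of the 8 arterial genes, 2 were called higher and 1 lower in the bridge in Nf1 KO nerves, and 1 higher in CTL nerves.

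Of 8 fibroblast markers, 4 were higher in the bridge in each genotype, Col3a1 at log2 1.05 in Nf1 KO and 1.25 in CTL nerves. The summed fibroblast level was 16400 to 17130 CPM in Nf1 KO bridge and 15270 to 15720 CPM in CTL bridge, and 9781 to 11160 CPM in Nf1 KO distal stump and 8006 to 9736 CPM in CTL distal stump. Of 12 Schwann cell markers, 7 were lower and 1 higher in the bridge in Nf1 KO nerves and 5 lower in CTL nerves, the same direction as Notch1, with Sox10 at log2 -0.54 and -0.40. Between genotypes 5 Schwann cell markers were lower in Nf1 KO bridge and 3 in Nf1 KO distal stump, Mbp among them in both. Of 7 perineurial markers, 6 were lower in Nf1 KO than in CTL bridge and 5 in Nf1 KO than in CTL distal stump. Their summed level was 544 to 592 CPM in Nf1 KO bridge and 718 to 775 CPM in CTL bridge, and 458 to 511 CPM in Nf1 KO distal stump and 611 to 663 CPM in CTL distal stump. Of 6 adipocyte markers, 6 were lower in Nf1 KO than in CTL bridge, with summed levels of 313 to 466 CPM against 579 to 794 CPM, and 1 in Nf1 KO than in CTL distal stump.

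The genes whose levels ran most like each member over the 12 libraries were looked up among 13152 genes with a mean log2 CPM of at least 1. Pearson's r of log2 CPM is given as a description, since it carries the differences between the groups. Heyl was closest to Pcdh19 (0.99), Fmo1 (0.98) and Tgfb3 (0.98). Jag1 was closest to Meox2 (0.98), Tspan11 (0.98) and Nrp1 (0.98), the last a marker in the arterial list. Notch3 was closest to Tll1 (0.97), Adamtsl2 (0.97) and Mfap4 (0.96), and Jag2 to Osr1 (0.97), Cdc42ep2 (0.97) and Esam (0.97), the last an endothelial marker. Dll4 followed Kcnma1 (0.96), Cdc25b (0.94) and Tbc1d8b (0.94), and Notch1 followed Klhl34 (0.95) and Mtor (0.95). For Dll1 (Rpgr 0.92), Notch2 (Egr3 0.90), Hey1 (Ccdc163 0.84) and Notch4 (Nudcd2 0.83) the nearest gene was less close. Between members, r was highest for Jag1 and Heyl (0.95), followed by Notch3 and Jag1 (0.88), and lowest for Notch1 and Notch3 (-0.89).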

How the data were processed

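The authors deposited 1 table of whole-number gene counts for 12 RNA-seq libraries, read here as estimated counts and not scaled to library size. Per the labels' protocols, total RNA was depleted of ribosomal RNA and sequenced from directional libraries. Per the submitters' processing notes, the mouse build was mm10 and the tools included DESeq2, cutadapt 1.2.1 and CASAVA 1.8.2, while the step that aligned and counted reads is not given in the sources used here. All values were whole, so none was rounded. Gene positions and exon lengths come from GENCODE M21 and promoters from RefSeq (GRCm38.p6).

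Genes were filtered with filterByExpr of edgeR 4.0.16 (R 4.3.3), which kept 19189 of 30452. All 12 libraries entered 1 quasi-likelihood model with TMM factors and a coefficient for each group, and p-values were adjusted over all tested genes at a threshold of 0.05. The contrasts were bridge against distal stump in each genotype, Nf1 KO against CTL in each region, and their interaction. A library resolves 0.0770 to 0.159 CPM with 3 counts as a floor, which covers counting error only. The procedure was tested on simulated counts. DESeq2 1.42.0, limma-voom (limma 3.58.1), other size factors, no filter, a replicate block, a covariate of 4 Y-linked genes, fits of the compared groups alone and fits without single libraries were the alternatives. The members, the gene lists and the tests were chosen with earlier results of these data known. All members are named, as are up to 4 called genes with the smallest p per pathway list, up to 3 genes per cell type list and the 3 genes most correlated with each member. Some genes that this rule names are not reported here. Nf1 serves as the check of the labels.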

Additional observations from a re-analysis of the deposited data

How the results depend on the processing

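Of 9 member calls with 20 alternatives each, 155 of 180 values passed the test in the same direction, and 25 kept the direction without passing, for Jag2 between genotypes in the distal stump, Dll4 between regions in Nf1 KO and Heyl between regions in CTL. The call of Nf1 in the bridge was lost with the groups compared alone (adjusted p = 0.0506), without the muscle-rich libraries (0.106) and in some leave-one-out fits (up to 0.0802). In the bridge 1 member, Heyl, was called between genotypes under DESeq2, limma-voom and the fit of the 2 groups compared, and 711 genes in all without both muscle-rich CTL bridge libraries. In the distal stump 0 members were called between genotypes under limma-voom, no filter, the Y-linked covariate, the groups compared alone (889 genes in all) and without both muscle-rich libraries. In CTL nerves 1 member, Jag1, was called between regions without the muscle-rich libraries, with 506 genes in all, and 869 genes were called with the groups compared alone. DESeq2 called 447 genes for the interaction. Leaving out 1 library at a time gave 0 to 1 members and 1612 to 2947 genes between genotypes in the bridge, 0 to 1 and 880 to 1561 in the distal stump, 5 to 6 and 1594 to 2892 between regions in Nf1 KO, 2 and 681 to 2062 in CTL, and 0 for the interaction.

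Over all genes, deviations of same-numbered libraries correlated at -0.06 to 0.14 (12 pairs, 1 of them over 0.1), so the numbers were not taken to pair the samples. Between bridge and distal stump of the same genotype, every same-numbered pair was positive, from 0.007 to 0.139. Between genotypes the same-numbered pairs ran from -0.064 to 0.081. Whether same-numbered bridge and distal samples shared mice was not tested. Single features did follow the number: Ddx3y was lowest in the libraries numbered 2 in all 4 groups, and neutrophil sums were highest in those numbered 1 in both Nf1 KO regions. With a replicate block, 0 members were called between genotypes in the distal stump (Jag2 -0.49, adjusted p = 0.0887), and the other member counts were 0, 6, 2 and 0 for the bridge, the regions in Nf1 KO and CTL, and the interaction.

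Signs turned for 13 member differences and 1 of Nf1, none of which had passed, and the cause was not tested. Without both muscle-rich libraries, log2 values were 0.227 for Dll1 and -0.049 for Hey1 between genotypes in the bridge, 0.235 for Notch4, -0.109 for Dll1 and 0.056 for Nf1 between regions in CTL, and -0.049 for Notch4 in the interaction. Dll4 between genotypes in the distal stump was -0.041 under limma-voom, and Notch2 between regions in CTL was -0.002 under DESeq2, -0.003 with other size factors and -0.001 with the Y-linked covariate. With 1 library left out, the values ran from -0.404 to 0.084 for Dll1 between genotypes in the bridge. In the distal stump they ran from -0.145 to 0.218 for Notch4, -0.042 to 0.117 for Jag1, -0.266 to 0.363 for Dll4 and -0.007 to 0.193 for Hey1. Between regions they ran from -0.012 to 0.147 for Hey1 in Nf1 KO, and in CTL from -0.040 to 0.031 for Notch2, -0.224 to 0.054 for Notch4, -0.019 to 0.181 for Hey1 and -0.114 to 0.026 for Nf1. The interaction of Hey1 ran from -0.124 to 0.075. The share of promoters with the RBPJ core was 25.6%, or 6.38% for the longer motif. With 3 samples a group, differences of Dll1, Dll4 and Heyl in the distal stump, at 39 to 168 counts, carry SEs of 0.29 to 0.37.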

Other observations

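Values of further HES and HEY genes, named after their values were seen, are given for themselves and not compared between genes. Hes6 ran from 19.2 to 21.7 CPM in Nf1 KO bridge, against 22.9 to 28.4 CPM in Nf1 KO distal stump, and was lower in that bridge group (log2 -0.35, SE 0.10, adjusted p = 0.0491 in edgeR). In CTL nerves it ran from 19.1 to 25.4 CPM in the bridge and from 22.1 to 23.3 CPM in the distal stump, with a log2 difference of -0.02 (adjusted p = 0.944). Hey2, the arterial member of the HEY family, had 1.43, 1.62 and 1.52 CPM in Nf1 KO bridge and 1.13, 1.90 and 0.931 CPM in CTL bridge, and 1.04, 1.02 and 1.22 CPM in Nf1 KO distal stump and 1.35, 2.09 and 1.75 CPM in CTL distal stump. The 3 Nf1 KO distal stump libraries were below the 3 CTL distal stump libraries, and the difference did not pass the test. Hes5 had at most 0.903 CPM in a library and 0 counts in 3 of the 12 libraries, CTL bridge 1, Nf1 KO distal 1 and Nf1 KO distal 3. Hes7 ran from 2.27 to 4.27 CPM with overlapping libraries in each pair of groups.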
